A study of Mus musculus with 12 samples.

Results

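The contractile genes of vascular smooth muscle were examined in hearts of mice in which CYB5R3 had been deleted from cardiomyocytes and in hearts of control mice. The list named 10 genes, and 9 of them were matched by symbol to the 53700 Ensembl genes counted, namely Acta2, Tagln, Myh11, Cnn1, Smtn, Actg2, Lmod1, Synpo2 and Myocd. No gene of the symbol tables used here was called Des2, so that entry has no value, and desmin (Des) was not put in its place. The list was selected on the measured Acta2 level, which was lower in knockout hearts, and was filled with known smooth muscle genes. The question was whether Acta2 was lower alone. The difference in Acta2 between the groups is therefore given as a description with no test, while the other 8 genes were tested.

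RNA was sequenced from hearts of male mice, 6 ac-WT and 6 ac-CYB5R3–KO, aged 10 to 13 weeks when tamoxifen was started at 33 mg/kg/d for 5 days, with hearts taken 5 days later. All 12 mice carried Myh6-CreERT2, a Cre recombinase expressed from a cardiomyocyte promoter and switched on by tamoxifen. Cyb5r3 alleles were wild-type in ac-WT mice (CYB5R3wt/wt) and floxed in ac-CYB5R3–KO mice (CYB5R3fl/fl). Smooth muscle cells, which do not use the Myh6 promoter, were not the target of the deletion. Frozen pieces of heart were powdered before RNA was taken, so vessel wall, cardiomyocytes, fibroblasts and blood were read together, and fewer cells of a type cannot be told apart from less RNA per cell.

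Smooth muscle contracts when myosin pulls on actin filaments after the myosin light chain has been phosphorylated. Smooth muscle cells build this machinery from their own isoforms, the actins Acta2 and Actg2 and the myosin heavy chain Myh11, together with actin-binding proteins such as transgelin, calponin and smoothelin. Most of these genes are switched on by serum response factor, which binds a short DNA motif called the CArG box, and by its partner myocardin. In the heart these cells form the muscle layer in the wall of the coronary arteries. Several of the genes are not private to smooth muscle: Acta2 is also made by activated fibroblasts and by immature cardiomyocytes, while Myocd, Synpo2 and Smtn are also expressed in striated muscle.

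Promoter sequence is shown for the gene that gave rise to the list and for Cnn1, whose difference had the opposite sign, because the genes are thought to share a control element. Each window runs from 250 bases before to 50 bases after the start of the gene in RefSeq (GRCm38.p6), 5′ to 3′ on the strand of the gene. Capitals mark CArG boxes in which at most 1 base of the central A/T run is another base, a form searched after the strict form had given no match. Acta2 lies on the minus strand at chr19:34255324-34255623, and Cnn1 on the plus strand at chr9:22099003-22099302.
Acta2: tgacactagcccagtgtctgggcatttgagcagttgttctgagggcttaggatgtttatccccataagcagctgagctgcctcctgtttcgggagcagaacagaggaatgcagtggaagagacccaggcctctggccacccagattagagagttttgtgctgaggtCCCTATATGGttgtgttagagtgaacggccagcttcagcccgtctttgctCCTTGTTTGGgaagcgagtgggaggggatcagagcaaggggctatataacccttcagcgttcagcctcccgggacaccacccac
Cnn1: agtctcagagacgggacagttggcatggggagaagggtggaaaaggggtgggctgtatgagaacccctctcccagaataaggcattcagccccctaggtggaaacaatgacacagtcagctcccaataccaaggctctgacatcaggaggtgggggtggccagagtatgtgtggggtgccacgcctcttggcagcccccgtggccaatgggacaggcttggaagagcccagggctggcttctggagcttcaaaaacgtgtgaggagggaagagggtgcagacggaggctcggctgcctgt
The Acta2 window held 2 such boxes, CCCTATATGG starting 84 bases and CCTTGTTTGG starting 34 bases before the gene start. Windows were at hand for 5 of the 9 genes (Acta2, Cnn1, Lmod1, Smtn and Synpo2), and in the other 4 of these 5 no box was found. Among all 32851 promoter windows, 9.98% held at least 1 such box and 0.822% held 2 or more. The strict CArG box, with only A or T in the run, was in 1.63% of all windows and in 0 of the 5. The letters TATAAA, on either strand, were in the Synpo2 window and in 13.6% of all windows. A match in these letters is a description and not a bound site.

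Between 43393183 and 53754284 reads were counted per heart. Levels are given as CPM, counts of a gene scaled to a common library size with the TMM factors of edgeR, which allow for a few genes crowding a library. The TMM factors of ac-WT hearts 2 and 3 were 0.570 and 0.723, against 0.988 to 1.222 in the other 10 hearts. Scaled by these factors, these 2 hearts also stood apart in several of the contractile genes. The values without them are therefore given beside the results. Cyb5r3 itself was lower in every ac-CYB5R3–KO heart (42.0 to 67.4 CPM) than in every ac-WT heart (81.9 to 185 CPM; log2 fold change -1.22, edgeR adjusted p = 0.0450).

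All 9 matched genes passed the filter on low counts, and all were read in every heart. Actg2 had the fewest reads, from 19 to 69 per heart, and Acta2 had from 2190 to 7393. Per kilobase of exon, the order of mean levels in ac-WT hearts was Acta2 (54.4 ± 17.1 CPM per kb, SD, n = 6), Smtn (17.6 ± 8.38), Cnn1 (6.67 ± 3.98), Synpo2 (6.62 ± 2.29), Tagln (4.11 ± 1.79), Myh11 (3.14 ± 1.58), Myocd (1.41 ± 0.538), Actg2 (0.798 ± 0.407) and Lmod1 (0.588 ± 0.255). Acta2 stood above Smtn in 6 of 6 ac-WT hearts. Neighbours could not be ordered between Cnn1 and Synpo2, where 4 of 6 hearts held the order, or between Tagln and Myh11, where 3 of 6 did. In ac-CYB5R3–KO hearts Cnn1 took the second place (13.7 ± 6.19 CPM per kb) ahead of Smtn (11.2 ± 1.41), although only 4 of 6 hearts held that order.

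Because related genes can share reads, their transcripts were compared. Only protein-coding transcripts of GENCODE M1 were compared, so pseudogenes and noncoding genes were not searched. No stretch of 75 bases, the length of a read, was identical between a transcript of any of the 9 genes and one of another gene. Acta2 and Actg2 were thus distinct at that length. On the opposite strand, Pcsk7 covered 4.10% of the exonic bases of Tagln, and the predicted genes Gm11946 and Gm11947 covered 16.3% of those of Smtn. The strand setting of the counts is not given in the sources used here, so the Smtn and Tagln counts are uncertain to that extent.

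Of the 8 genes other than Acta2, 5 had lower fitted levels in ac-CYB5R3–KO than in ac-WT hearts (Myh11, Actg2, Lmod1, Smtn and Myocd) and 3 had higher ones (Cnn1, Synpo2 and Tagln), while 51.2% of all 17847 genes tested were lower. No gene of the 8 had an adjusted p under 0.05 in edgeR, a threshold passed by 0.101% of all genes tested. At an unadjusted p under 0.01 there was 1 of the 8, Myh11, which was lower (background 4.59%, of which 3.27% lower and 1.33% higher). At an unadjusted p under 0.05 there were 7 of the 8, 5 of them lower and 2 higher (background 14.6%, of which 9.73% lower and 4.91% higher). Without ac-WT hearts 2 and 3 only Myh11 kept an edgeR p under 0.05. With libraries scaled by total counts only Myh11, Cnn1 and Synpo2 did. DESeq2 gave 1 of the 8 an adjusted p under 0.05 (Myh11, 0.0394; background 2.53%), and limma-voom gave 0. The groups overlapped in all 9 genes, whereas 1.04% of all genes lay wholly lower and 0.510% wholly higher in ac-CYB5R3–KO hearts.

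**Figure D1:**
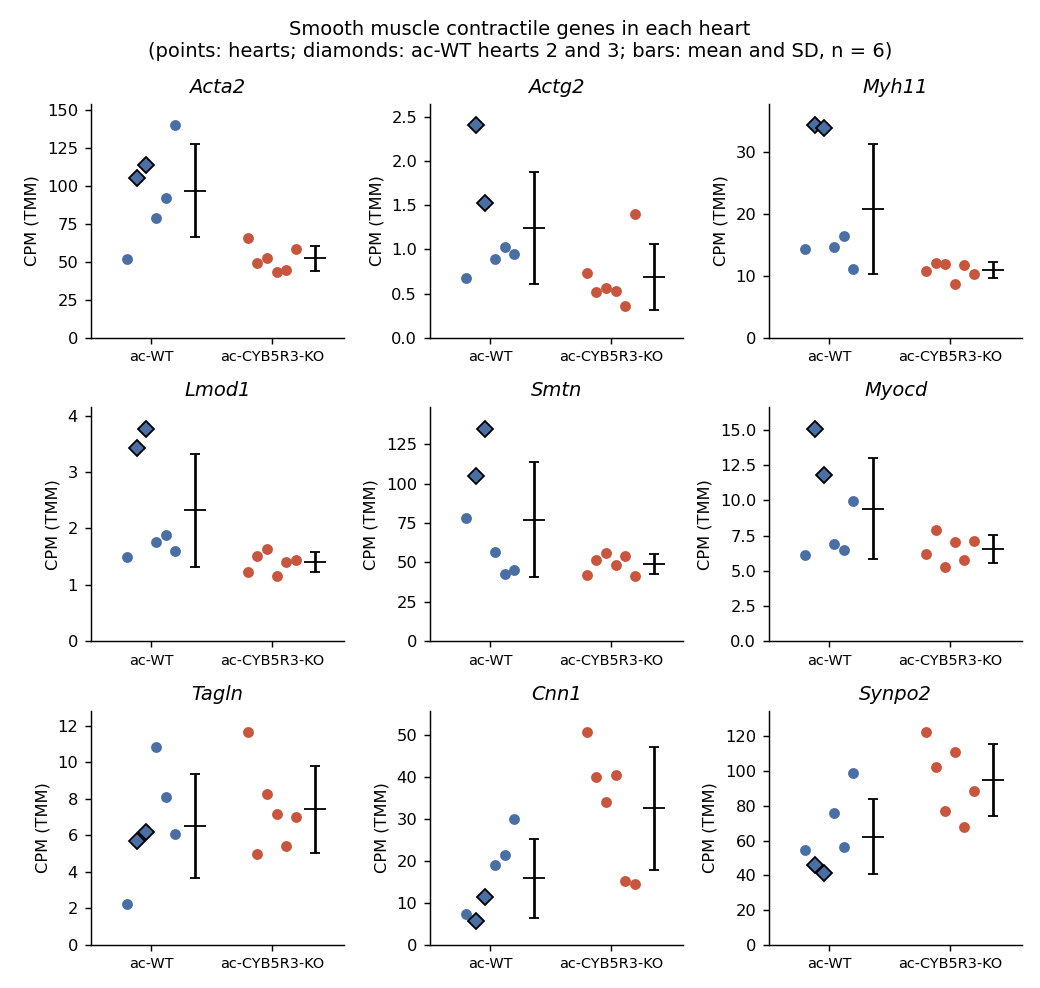
Level of each gene in each heart (TMM-normalized CPM, linear axes from 0), with the mean and SD of 6 hearts per group beside the points. The diamonds, ac-WT hearts 2 and 3, lie above the other 4 ac-WT hearts in Actg2, Myh11, Lmod1, Smtn and Myocd and below them in Synpo2.

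Acta2 (ENSMUSG00000035783, chromosome 19), the alpha actin of smooth muscle, had 51.6, 105, 114, 78.9, 92.3 and 140 CPM in ac-WT hearts 1 to 6. In ac-CYB5R3–KO hearts 1 to 6 it had 65.3, 49.5, 52.7, 42.9, 44.6 and 58.1 CPM. All 6 ac-CYB5R3–KO hearts lay below the ac-WT median of 98.7 CPM, and the overlap came from ac-WT heart 1, which sat among the ac-CYB5R3–KO hearts. The ac-CYB5R3–KO mean of 52.2 ± 8.47 CPM (SD, n = 6) was 53.8% of the ac-WT mean of 97.0 ± 30.4 CPM (SD, n = 6), and the fitted log2 fold change was -0.89 (SE 0.20). This is the difference for which the genes were chosen.

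Actg2 (ENSMUSG00000059430, chromosome 6), the gamma actin of smooth muscle best known from gut and other visceral muscle, was near the lower limit of what these libraries resolve. Its lowest, median and highest levels were 0.678, 0.986 and 2.41 CPM in ac-WT hearts and 0.357, 0.544 and 1.40 CPM in ac-CYB5R3–KO hearts. In 5 of 6 ac-CYB5R3–KO hearts it was below the ac-WT median, and heart 6 at 1.40 CPM was the exception. Its log2 fold change was -0.85 (95% interval -1.63 to -0.063; edgeR p = 0.0362, adjusted p = 0.305; two-sided exact permutation test over hearts, p = 0.0844), and -0.36 without ac-WT hearts 2 and 3.

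Myh11 (ENSMUSG00000018830, chromosome 16) encodes the myosin heavy chain of smooth muscle, the motor of the contractile unit and the most restricted marker of these cells in the list. It had 14.3, 34.4, 33.9, 14.7, 16.4 and 11.2 CPM in ac-WT hearts 1 to 6 and 10.8, 12.2, 11.9, 8.75, 11.7 and 10.2 CPM in ac-CYB5R3–KO hearts 1 to 6. The ac-CYB5R3–KO hearts kept within a narrow band below the ac-WT median, 3 of them below every ac-WT heart, while ac-WT hearts 2 and 3 had over 30 CPM. The log2 fold change was -0.93 (SE 0.26; 95% interval -1.49 to -0.36), with p = 0.00355 and adjusted p = 0.184 in edgeR and p = 0.00866 in the exact permutation test (n = 6 per group). Without ac-WT hearts 2 and 3 it was -0.36 (edgeR adjusted p = 0.460).

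Lmod1 (ENSMUSG00000048096, chromosome 1), which encodes leiomodin 1, a protein that starts new actin filaments in smooth muscle, had a similar spread. It had 1.49, 1.82 and 3.77 CPM (lowest, median and highest) in ac-WT hearts and 1.16, 1.43 and 1.64 CPM in ac-CYB5R3–KO hearts. In 4 of 6 ac-CYB5R3–KO hearts it was below every ac-WT heart. Its log2 fold change was -0.72 (95% interval -1.25 to -0.19; edgeR p = 0.0116, adjusted p = 0.224 and exact permutation p = 0.0130), and -0.25 without ac-WT hearts 2 and 3.

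Smtn (ENSMUSG00000020439, chromosome 11), which encodes the actin-binding protein smoothelin of contractile smooth muscle, ranged from 42.7 to 135 CPM in ac-WT hearts (median 67.6) and from 41.6 to 56.0 CPM in the knockout hearts (median 50.2). The highest 3 levels were in ac-WT hearts 3, 2 and 1, and the remaining ac-WT hearts sat within or just above the ac-CYB5R3–KO range. Its log2 fold change was -0.65 (95% interval -1.20 to -0.11; edgeR p = 0.0226, adjusted p = 0.267 and exact permutation p = 0.102), and -0.17 without ac-WT hearts 2 and 3.

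Myocd (ENSMUSG00000020542, chromosome 11) encodes myocardin, the coactivator that works with serum response factor in smooth and cardiac muscle. It ranged from 6.13 to 15.1 CPM in ac-WT hearts (median 8.44) and from 5.24 to 7.89 CPM in the knockout hearts (median 6.61). Every ac-CYB5R3–KO heart was below the ac-WT median, and the ranges overlapped in their lower part. Its log2 fold change was -0.52 (95% interval -0.98 to -0.057; edgeR p = 0.0303, adjusted p = 0.286 and exact permutation p = 0.0952), and -0.16 without ac-WT hearts 2 and 3.

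Cnn1 (ENSMUSG00000001349, chromosome 9) encodes calponin 1, which binds actin and slows the myosin motor. Its levels were 7.31, 5.56, 11.3, 19.1, 21.5 and 30.1 CPM in ac-WT hearts 1 to 6. In ac-CYB5R3–KO hearts 1 to 6 they were 50.6, 40.1, 34.1, 40.4, 15.2 and 14.5 CPM. The ac-CYB5R3–KO hearts formed a high set of 4, each above every ac-WT heart, and 2 hearts, 5 and 6, inside the ac-WT range. The mean was 32.5 ± 14.7 CPM (SD, n = 6) against 15.8 ± 9.42 CPM (SD, n = 6) in ac-WT hearts, a ratio of 2.06, and the fitted difference was 1.04 on the log2 scale (95% interval 0.14 to 1.93; edgeR p = 0.0262, adjusted p = 0.272 and exact permutation p = 0.0455). Without ac-WT hearts 2 and 3 the log2 fold change was 0.75, with p over 0.05.

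Synpo2 (ENSMUSG00000050315, chromosome 3) encodes synaptopodin 2, or myopodin, which bundles actin and sits at the Z-disc of striated muscle as well. It had 41.6, 55.6 and 98.9 CPM (lowest, median and highest) in ac-WT hearts and 67.6, 95.4 and 122 CPM in ac-CYB5R3–KO hearts. All 6 ac-CYB5R3–KO hearts were above the ac-WT median, and 3 were above every ac-WT heart. Its log2 fold change was 0.61 (95% interval 0.15 to 1.06; edgeR p = 0.0130, adjusted p = 0.231 and exact permutation p = 0.0260), and 0.42 without ac-WT hearts 2 and 3.

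Tagln (ENSMUSG00000032085, chromosome 9) encodes transgelin, or SM22, an actin-binding protein of smooth muscle and of activated fibroblasts. It ranged from 2.24 to 10.9 CPM in ac-WT hearts (median 6.13) and from 4.97 to 11.6 CPM in the knockout hearts (median 7.09), and each group spread over most of the other's range. The log2 fold change was 0.18, with a 95% interval from -0.46 to 0.83 that spans differences of either sign (edgeR adjusted p = 0.797 and exact permutation p = 0.571), and it was 0.14 without ac-WT hearts 2 and 3. Without single hearts it ranged from 0.0032 (without ac-WT heart 1) to 0.39 (without ac-WT heart 4). The exact permutation p was computed for 8 genes and is not adjusted, and 0.00216 is the smallest it can give.

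**Figure D2:**
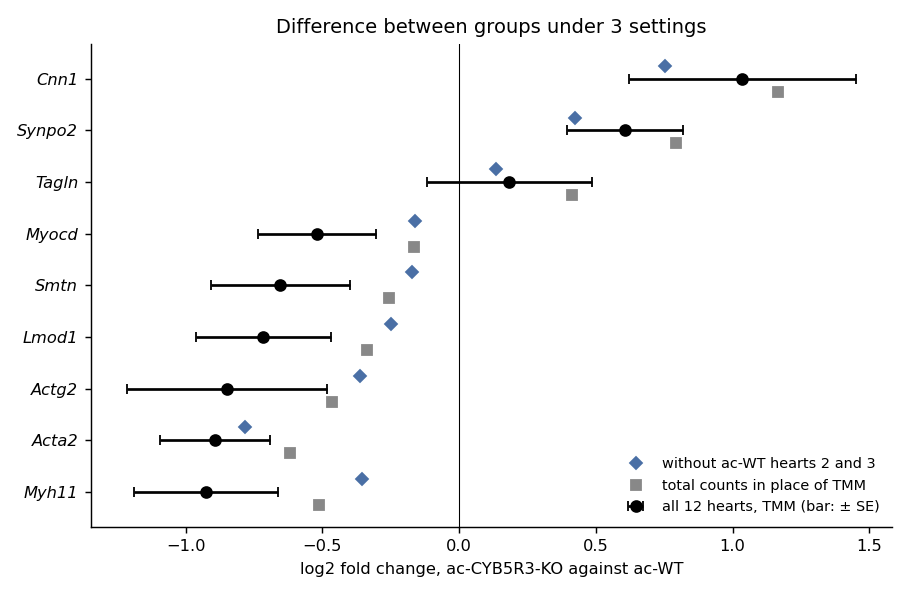
Fitted log2 fold change of each gene in ac-CYB5R3–KO against ac-WT hearts, with all 12 hearts and TMM factors (black, bars show 1 SE), without ac-WT hearts 2 and 3 (blue) and scaled by total counts (grey). No gene crosses 0 under either alternative. Acta2 stays at -0.78 without those hearts, while Myh11, Actg2, Lmod1, Smtn and Myocd lie between -0.36 and -0.16. These are the 5 genes in which those hearts had the highest TMM-scaled ac-WT levels.

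Acta2 was thus not the only gene of the list with a lower level when all hearts were used, since Myh11 and Actg2 had log2 fold changes of about the same size. The median of the other 8 genes was -0.59, and Acta2 lay 0.31 below it. This distance depended on single hearts. Without ac-WT heart 6, which had the highest Acta2 level of all, the gap between Acta2 and the median was -0.12, and without ac-WT hearts 2 and 3 it was -0.62. Leaving out those 2 hearts moved Acta2 from -0.89 to -0.78, and moved the 5 lower genes from between -0.93 and -0.52 to between -0.36 and -0.16. None of those 5 had an edgeR p under 0.01 in that fit, and only Myh11 had p under 0.05. In TMM-scaled levels, ac-WT hearts 2 and 3 were the highest of their group in exactly these 5 genes and not in Acta2. A smaller difference in the 5 without them thus follows from which hearts were left out and is a description only. That order depends on the low TMM factors of these 2 hearts. Counts not scaled for depth were still highest in them for Myh11, Lmod1 and Actg2. Myocd had 432 and 424 reads in hearts 2 and 3, against 526 in ac-WT heart 6. Smtn had 3008 reads in heart 2, against 4163 in ac-WT heart 1.

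The scaling of the libraries moved all genes together. When total counts replaced the TMM factors, the median over all genes of the log2 fold change went from -0.0074 to 0.256, and the share of lower genes among those with p under 0.01 went from 71.1% to 33.1%. The sign of none of the 9 genes changed. Acta2 was then at -0.62, which is -0.88 relative to the median of all genes, Myh11 at -0.51 (-0.77 relative to it) and Cnn1 at 1.17 (0.91 relative to it), both with p under 0.05 and over 0.01. Smtn, Actg2, Lmod1 and Myocd were at -0.26, -0.46, -0.34 and -0.17, and none of them had p under 0.05.

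A ratio between genes of the same heart does not depend on how libraries are scaled, apart from the constant of 1 CPM added. This constant is not small beside Actg2 (0.357 to 2.41 CPM) and Lmod1 (1.16 to 3.77 CPM). Their part in the mean of 8 genes therefore does depend on the scaling. On the log2(CPM + 1) scale, Acta2 exceeded the mean of the other 8 genes by 2.51 to 3.47 in ac-WT hearts (median 2.90) and by 1.85 to 2.40 in ac-CYB5R3–KO hearts (median 2.16). The 2 sets of hearts did not overlap in this ratio. Against Cnn1 the excess of Acta2 was 1.99 to 4.02 in ac-WT hearts and 0.0869 to 1.93 in ac-CYB5R3–KO hearts, again apart. Against Myh11 it was 1.58 to 3.54 in ac-WT hearts (mean 2.23 ± 0.728, SD, n = 6) and 1.85 to 2.49 in ac-CYB5R3–KO hearts (mean 2.15 ± 0.254, SD, n = 6), so the ac-CYB5R3–KO hearts lay inside the ac-WT range. These ratios contain the difference in Acta2 for which the list was made and are given with no test.

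**Figure D3:**
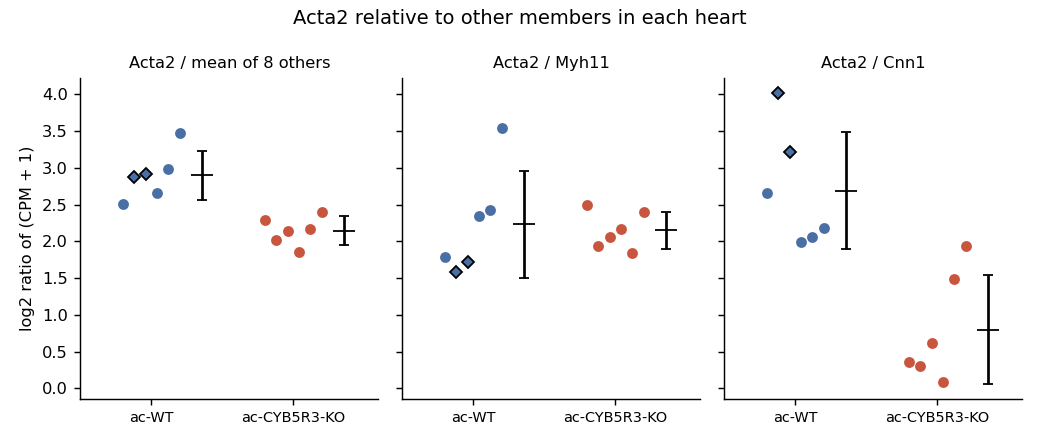
Log2 ratio of Acta2 to the mean of the other 8 genes, to Myh11 and to Cnn1 in each heart (CPM + 1), with the mean and SD of 6 hearts per group and diamonds for ac-WT hearts 2 and 3. The groups are apart for the mean of 8 genes and for Cnn1, whereas against Myh11 the ac-CYB5R3–KO hearts (1.85 to 2.49) lie inside the ac-WT range.

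The contractile genes did not vary as 1 set from heart to heart. With the mean of each group removed, Myh11 and Lmod1 had a Pearson r of 0.962 across the 12 hearts, Myh11 and Smtn 0.829, and Cnn1 and Synpo2 0.756. Between these pairs the sign was opposite, with r = -0.747 for Myh11 and Synpo2 and -0.503 for Myh11 and Cnn1. The highest r of Acta2 with another gene of the list was 0.557 with Myocd, followed by 0.534 with Tagln and 0.513 with Actg2, and its r with Myh11 was 0.215. Over the 10 hearts without ac-WT hearts 2 and 3, r was 0.696 for Myh11 and Lmod1 and 0.734 for Cnn1 and Synpo2, but 0.231 for Myh11 and Smtn, and -0.310 for Acta2 and Myh11. In those 10 hearts the r of Acta2 was 0.612 with Cnn1 and 0.604 with Synpo2, both genes with a difference of the opposite sign between the groups, and -0.822 with Smtn. When total counts were used, the r of Acta2 was 0.685 with Cnn1, 0.667 with Tagln, 0.602 with Synpo2, -0.124 with Myh11 and -0.463 with Smtn. These correlations describe hearts that share a scaling factor per library.

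**Figure D4:**
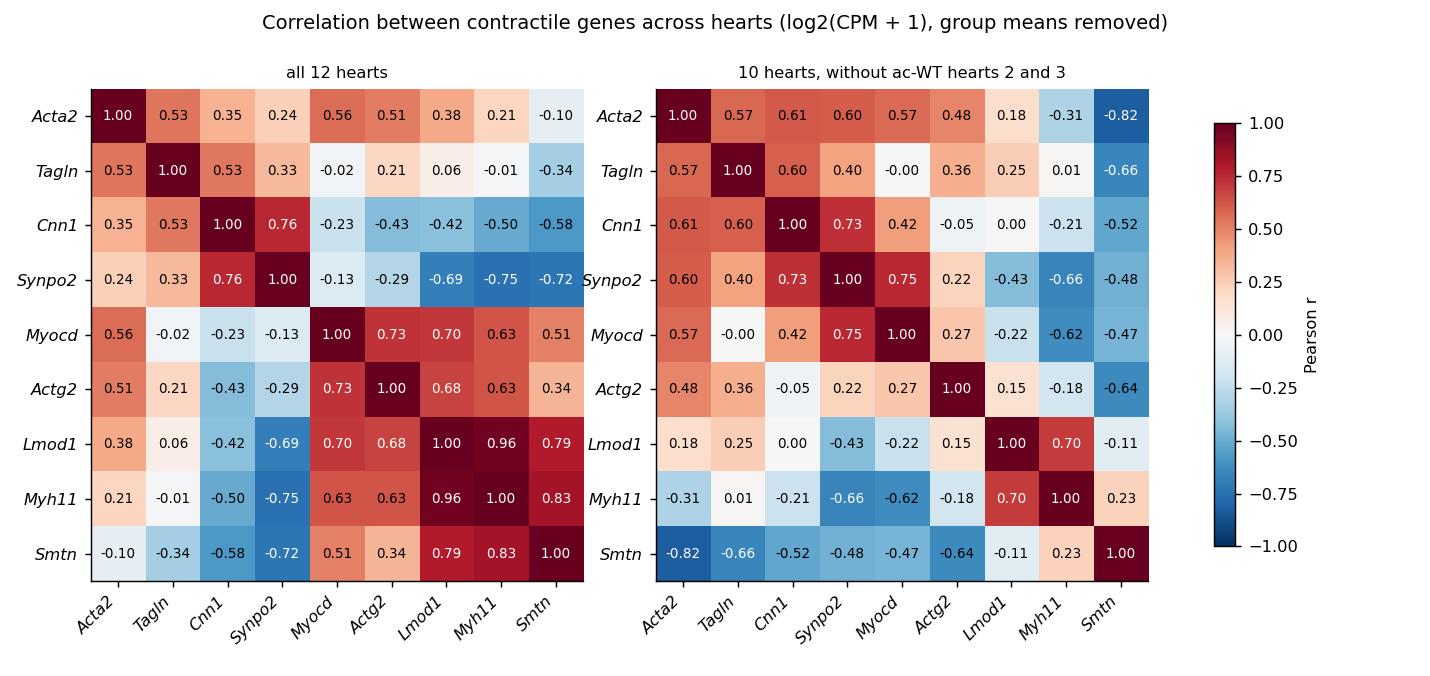
Pearson r between each pair of genes across hearts, on log2(CPM + 1) with the group means removed, for all 12 hearts (left) and for 10 hearts (right). Myh11 and Lmod1 (0.96 and 0.70) and Cnn1 and Synpo2 (0.76 and 0.73) stay positive in both panels, while Myh11 and Smtn go from 0.83 to 0.23 and Acta2 and Smtn from -0.10 to -0.82.

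Among all genes tested, those most like Acta2 across hearts by the same measure were Maff (r = 0.903), Rps27a-ps2 (0.893), Gm13215 (0.891), Lsm4 (0.887), Dbi (0.886), Uap1 (0.886), ENSMUSG00000107733 (0.882) and BC031181 (0.880), each over 12 hearts. Maff encodes a small MAF transcription factor, Lsm4 a protein of RNA processing, Dbi the acyl-CoA-binding protein, and Uap1 an enzyme that makes UDP-N-acetylglucosamine. No gene of the contractile list was among these 8, and 3 of the 8 stayed among the nearest 8 under Spearman correlation and 2 with total counts. Maff had 11.2 CPM in ac-WT and 11.5 CPM in ac-CYB5R3–KO hearts on average (log2 fold change 0.03, edgeR adjusted p = 0.930). Uap1 had 27.8 and 20.2 CPM (log2 fold change -0.46, edgeR adjusted p = 0.0596).

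The rest of the contractile pathway was read from lists of related genes, with TMM factors unless stated. Calcium acts through myosin light chain kinase (Mylk), and a phosphatase, whose inhibitor is encoded by Ppp1r14a, removes the phosphate from the light chain. Of 11 genes of this switch, 0 passed an adjusted p of 0.05 in edgeR. The 1 gene with p under 0.01 was higher in ac-CYB5R3–KO hearts, and its values are not reported here. A further 2 genes had p under 0.05, both on the lower side, Mylk (-0.44) and Ppp1r14a (-0.47). The median of the 11 was 0.17, against -0.0074 for all genes tested. These medians were 0.37 and 0.256 with total counts, and 0.025 and 0.016 without ac-WT hearts 2 and 3. Without ac-WT hearts 2 and 3 Mylk was at -0.15 and Ppp1r14a at -0.26, neither with p under 0.05.

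In the SRF and myocardin list of 10 control genes, 0 passed an adjusted p of 0.05 in edgeR, 2 had p under 0.01 and 3 had p under 0.05, all lower. Klf4, a transcription factor known to hold back smooth muscle genes, had 57.1 ± 18.0 CPM in the ac-WT group and 32.1 ± 4.37 CPM in the ac-CYB5R3–KO group (SD, n = 6; log2 fold change -0.83, edgeR adjusted p = 0.144). Fhl2, a LIM-domain cofactor, had 848 ± 123 and 598 ± 119 CPM (SD, n = 6; -0.50, edgeR adjusted p = 0.196). With total counts no gene of this list had p under 0.01, Klf4 being at -0.52 and Fhl2 at -0.23, and the list median went from -0.074 to 0.19. Srf itself differed by -0.12 on the log2 scale (edgeR adjusted p = 0.656) and by 0.17 with total counts. The myocardin-related factors Mrtfa and Mrtfb differed by 0.013 and 0.12.

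Of 15 thin filament and cytoskeletal genes, 0 passed an adjusted p of 0.05 and 0 had p under 0.01 in edgeR, while 2 had p under 0.05, both higher. These were Des, the intermediate filament gene desmin of all muscle, at 2384 ± 617 and 3605 ± 653 CPM (SD, n = 6; log2 fold change 0.60, edgeR adjusted p = 0.218), and the calponin paralog Cnn3 (0.33). In Des 5 of 6 ac-CYB5R3–KO hearts were above every ac-WT heart. Of 15 smooth muscle receptors and channels, 0 passed an adjusted p of 0.05, and 3 had p under 0.05, all lower. Ednra, the endothelin A receptor gene, was the 1 with p under 0.01, at 22.4 ± 2.67 and 16.1 ± 3.19 CPM (SD, n = 6; log2 fold change -0.48, edgeR adjusted p = 0.184). With total counts Ednra was at -0.22, with p over 0.05, and no gene of that list had p under 0.01. Kcnmb1, a potassium channel subunit gene typical of smooth muscle, was at 0.344 to 1.29 CPM over all hearts. The other actins apart from Actg2 had higher levels per kilobase than Acta2, from 187 CPM per kb for Actg1 to 3333 for Actc1 in ac-WT hearts, and their log2 fold changes were 0.12 for Acta1, 0.079 for Actc1, -0.17 for Actb (0.12 with total counts) and -0.40 for Actg1 (edgeR adjusted p = 0.354).

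**Figure D5:**
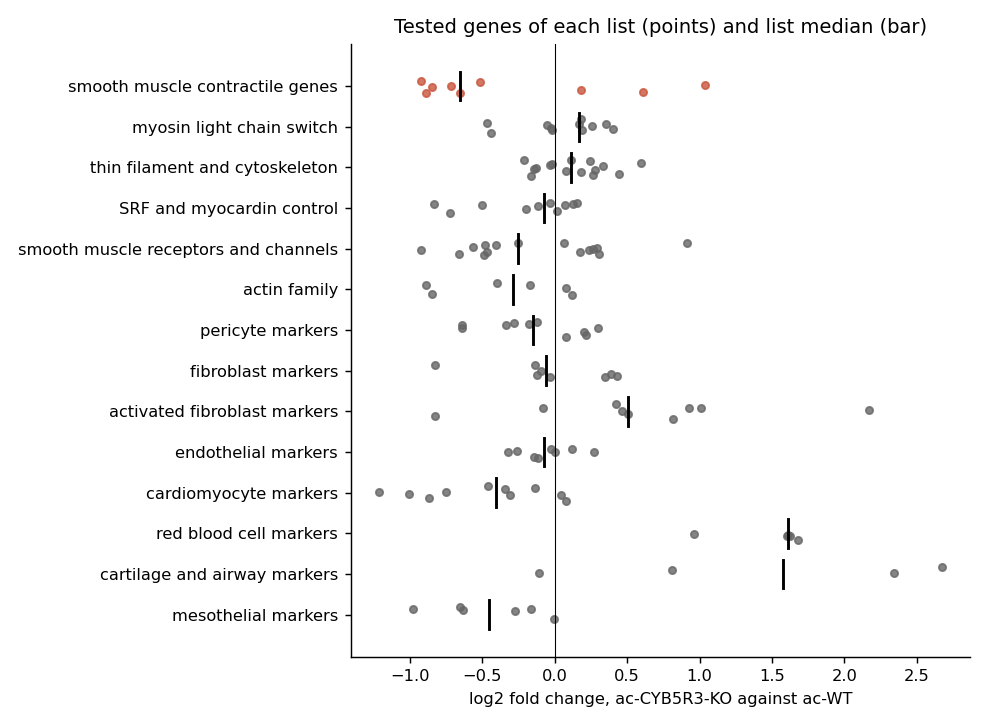
Fitted log2 fold change of each tested gene (points) by list, with the list median as a bar; the contractile genes are in red and the median of all genes tested was -0.0074. The contractile genes fall into 6 with negative and 3 with positive values, while the other smooth muscle and pericyte lists have medians between -0.26 and 0.17 and the actin family, which holds Acta2 and Actg2, has -0.29. With total counts the sign of the median turned in the receptor and channel list (0.033), the actin family (0.016), the SRF and myocardin list (0.19) and the pericyte list (0.12).

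Markers of other cells in the tissue were read beside these values. With total counts the list medians of the pericyte, fibroblast and endothelial markers were 0.12, 0.11 and 0.25, opposite in sign to those with TMM factors (-0.15, -0.062 and -0.073). Of 10 markers of pericytes, the mural cells of capillaries, 0 had p under 0.01 in edgeR and 3 had p under 0.05 (Vtn and Abcc9 lower, Cspg4 higher), with a summed level of 357 to 505 CPM in ac-WT and 328 to 481 CPM in the knockout hearts. Of 8 endothelial markers, 0 had p under 0.05, the nearest being Flt1 and Kdr, and their sums were 473 to 866 and 435 to 773 CPM. Among 8 fibroblast markers 5 had lower and 3 higher fitted levels, with log2 fold changes from -0.83 to 0.43. Only Gsn, the lowest, had p under 0.01 (log2 fold change -0.83, edgeR adjusted p = 0.170). Of 9 markers of activated fibroblasts, which can also make Acta2 and Tagln, 7 had higher fitted levels (median log2 fold change 0.50, and 0.030 without ac-WT hearts 2 and 3), with Comp at p under 0.01 (2.17, edgeR adjusted p = 0.144), and their sum was 226 to 4024 CPM in ac-WT and 2482 to 3521 CPM in the knockout hearts.

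Cardiomyocyte markers had a median of -0.40 (-0.044 with total counts and -0.062 without ac-WT hearts 2 and 3), with 3 of 10 lower at p under 0.01 (Tnni3, Myl2 and Myl3). All 5 matched red blood cell markers had higher fitted levels (median 1.61, against 2.17 with total counts and 2.38 without ac-WT hearts 2 and 3). Of these 5, 3 had p under 0.05 and 0 had p under 0.01, but 4 had p under 0.01 with total counts and 5 without ac-WT heart 2, and Hba-a1 and Alas2 had adjusted p = 0.290 and 0.286 in edgeR. The summed level of 9 cartilage and airway markers was 1.08 to 8.33 CPM in ac-WT and 22.1 to 38.3 CPM in the knockout hearts, mostly Col11a1 (21.1 to 36.5 CPM in ac-CYB5R3–KO hearts). Of these 9, 4 passed the filter and were tested, 3 with higher fitted levels and 1 with a lower one (log2 fold change -0.11). Col11a1 and Col2a1 had p under 0.01 (edgeR adjusted p = 0.144 and 0.173), although Col2a1 had only 0 to 51 reads per heart. Scgb3a2 was at 0 reads in all hearts. Mesothelial markers summed to 5.21 to 46.6 and 6.12 to 24.0 CPM, and the 2 with the lowest p, Upk3b and Msln, had p over 0.05. The part of these cells in the levels of the contractile genes was not tested.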

How the data were processed

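Whole-heart total RNA was prepared with a stranded kit and sequenced as unpaired 75-base reads. The authors deposited 1 table of raw read counts for 53700 genes, which was used as deposited, with all 12 sample columns mapped and 0 unused columns. The submitters' processing notes name STAR, featureCounts and GRCm39, whereas the study's methods name an older mouse build, so no gene coordinates are printed other than RefSeq promoter windows. The strand setting is not given in the sources used here. Symbols were found for 31027 identifiers (57.8%). Exon lengths and shared sequence came from GENCODE M1, an annotation of an earlier build than that of the notes.

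Genes were kept by filterByExpr (minimum count 10), scaled by TMM and fitted with edgeR 4.0.16 in R 4.3.3 by the quasi-likelihood test, group only, with Benjamini-Hochberg adjustment over all 17847 genes. The study's own test used FPKM values, which count data do not call for. The SE is the absolute log2 fold change divided by the square root of F, and intervals are 95%. Single genes were also tested by a two-sided exact permutation test of the difference in mean CPM over 924 regroupings. The code was tested on simulated data. A p under 0.01 was counted beside an adjusted p under 0.05. The genes named were all contractile genes, Cyb5r3, the 8 genes nearest to Acta2 by correlation and, in each other list, those with p under 0.01 or, where there were none, the 2 with the lowest p, except 1 gene of the myosin light chain list that met this rule and is not reported here. Mylk, Ppp1r14a, Srf, Mrtfa, Mrtfb, Kcnmb1, Cspg4, Scgb3a2 and the other actins were added after their values were seen. The contractile genes and all lists were chosen with earlier results of these data known. Ratios and correlations used log2(CPM + 1). Alternatives were total counts, upper-quartile factors, no filter, 10 counts in every library, DESeq2 1.42.0, limma-voom (limma 3.58.1), a replicate block, a pseudocount of 0.5, and leaving out each heart or ac-WT hearts 2 and 3. The hearts came from separate animals, and p-values measure the spread between these samples. Reads carry no molecular identifiers, so depth bears on counting error only.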

Additional observations from a re-analysis of the deposited data

Results flagged for a closer look

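Actg2 in ac-CYB5R3–KO heart 6 was at 1.40 CPM, while the other 5 ac-CYB5R3–KO hearts had 0.357 to 0.738 CPM. This heart stood apart because its gap to the nearest other heart was 0.637 of the group's range, above the Dixon limit of 0.625 for 6 samples. It was 1 of 18 sets of a gene and a group that were checked, and chance alone sets apart about 1 in 20. Without this heart the log2 fold change of Actg2 was -1.18, with p under 0.01 in edgeR, against -0.85 with it.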

How the results depend on the processing

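The signs of the 8 tested contractile genes, 5 lower and 3 higher, were the same in every alternative run, and Acta2 was lower in each. The count of lower genes with p under 0.01, 1 with all hearts in edgeR, was 0 with total counts, 2 with DESeq2 and 0 without ac-WT hearts 2 and 3, and 0 to 3 when single hearts were left out (0 without ac-WT heart 2, ac-WT heart 3 or ac-CYB5R3–KO heart 4, and 3 without ac-WT heart 6). The count of higher genes with p under 0.01, 0 in edgeR, was 1 with no filter, with DESeq2 and with limma-voom, and 0 to 2 without single hearts (2 without ac-WT heart 6). At an adjusted p under 0.05 the count of 0 became 1 with DESeq2 (Myh11), and stayed at 0 without any single heart. The gap between Acta2 and the median of the other 8, -0.31, ranged from -0.43 to -0.12 without single hearts. Among the other 114 listed genes, 7 were lower and 4 higher at p under 0.01, against 3 and 10 with total counts. Without ac-WT hearts 2 and 3 the higher count was 8, and without single hearts the counts were 4 to 10 lower and 3 to 9 higher. Over all genes an adjusted p under 0.05 was reached by 18 genes in edgeR, 451 in DESeq2, 8 with total counts and 2 with limma-voom, and p under 0.01 by 820, 1238 (DESeq2) and 426 (total counts). The cause of these differences was not tested.

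The replicate numbers are shared by both groups, but the hearts came from different animals. The deviations of same-numbered hearts correlated by over 0.1 in 4 of 6 pairs (-0.160 to 0.360), and 6 of 12 hearts correlated best with their own number, a hint of shared structure from the data and not from the design. The pairing was not used because not every pair was over 0.1 and no label names a shared litter, batch or day. With the replicate block, 2 contractile genes were lower (Myh11 and Lmod1) and 1 higher (Synpo2) at p under 0.01. In that fit 3.77% of all genes tested had p under 0.01, and 65% of those were lower. Cnn1 had an edgeR p of 0.0673 with the block and 0.0262 without it. Of all genes, 2 passed an adjusted p of 0.05 with the block. Actg2, with 19 to 69 reads per heart, is the gene for which depth limits most.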
